A study of Mus musculus with 12 samples.

Results

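Genes of astrocytes and Bergmann glia were followed in medulloblastomas and cerebella of *Brca2*;*Trp53* mutant mice. The 10 genes, *Slc1a2*, *Slc1a3*, *Glul*, *Aqp4*, *Gja1*, *Aldh1l1*, *S100b*, *Gfap*, *Gdf10* and *Hopx*, were picked by symbol among the 24091 genes of the expression table, and all 10 were found there and passed the filter on low values. Messenger RNA of 12 samples was sequenced and given as TPM, a transcript level scaled for transcript length and library size. The samples form 4 groups of 3. Tumors labelled Brca2-mut;Trp53-mut were dissected from mice GB344, GB359 and GB370 when tumors had formed, and adjacent cerebellum of the same genotype came from the same 3 mice. Tumor-free control cerebella came from 3 Brca2-mut;Trp53-WT mice (GB361, GB508, GB512) and from 3 Brca2-WT;Trp53-mut mice (GB517, GB519, GB520), described as adult and matched for age. The *Brca2* mutation is the loss of floxed exons in cells with a history of Cre driven by the human *GFAP* promoter, in the developing central nervous system, whereas *Trp53* is knocked out in the whole animal. Cre under this promoter is known to act in a lineage that includes astrocytes, Bergmann glia and granule neurons, and whether Brca2-WT mice carried Cre is not given in the sources used here.

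Astrocytes take up the glutamate that neurons release, convert it to glutamine, buffer potassium and water through channels at their endfeet, and are joined by gap junctions. Bergmann glia are the radial astrocytes of the cerebellum, whose fibres wrap Purkinje cell synapses and guide granule neurons during development. Medulloblastomas of the Sonic hedgehog type are thought to start from granule cell progenitors (GCPs), and astrocytes within them are known as part of the tumor stroma. In tissue RNA, fewer cells of a type and less RNA per cell cannot be told apart.

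The labelled tissues were checked by their markers. The summed level of 6 GCP markers (*Atoh1*, *Barhl1*, *Gli1*, *Sfrp1*, *Mki67*, *Top2a*) was 887 to 1697 TPM in tumors and 34.5 to 45.2 TPM in controls, with *Atoh1* near 0 in controls (mean 0.0818 TPM). In adjacent cerebellum the same sum was 486 TPM in GB344, 445 TPM in GB359 and 69.9 TPM in GB370, so all 3 adjacent samples lay above every control. Per-gene TPM pools all transcripts of a gene and does not resolve the deleted exons, so it could not check the genotypes: *Trp53* was 124 to 130.5 TPM in tumors, 66.1 to 85.0 TPM in adjacent cerebellum, 47.1 to 49.4 TPM in Trp53-mut controls and 33.1 to 37.2 TPM in Trp53-WT controls. *Brca2* was 8.22 to 14.6 TPM in tumors, 4.52 to 6.98 TPM in adjacent cerebellum and 3.24 to 4.40 TPM over all controls. Each sample had between 15088 and 15803 genes at 1 TPM or more.

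Promoter sequences from RefSeq (GRCm38.p6; 250 bases before and 50 bases after the start of transcription) were searched for 9 of the 10 genes. That of *Aqp4* is not reported here. Shown are *Gfap*, whose tumor level stood apart from the rest, *Slc1a3*, the gene with the highest level in controls, and *Gdf10*, with the lowest tumor level relative to controls. Capitals mark matches, on either strand, to the searched motifs.
Gfap, chr11:102897151-102897450, minus strand: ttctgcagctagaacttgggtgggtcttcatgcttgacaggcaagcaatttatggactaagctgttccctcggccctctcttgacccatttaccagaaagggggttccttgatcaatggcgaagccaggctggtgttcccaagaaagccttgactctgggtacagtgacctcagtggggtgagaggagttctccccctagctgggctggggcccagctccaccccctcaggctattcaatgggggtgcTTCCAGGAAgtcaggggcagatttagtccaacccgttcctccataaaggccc
Slc1a3, chr15:8710758-8711057, minus strand: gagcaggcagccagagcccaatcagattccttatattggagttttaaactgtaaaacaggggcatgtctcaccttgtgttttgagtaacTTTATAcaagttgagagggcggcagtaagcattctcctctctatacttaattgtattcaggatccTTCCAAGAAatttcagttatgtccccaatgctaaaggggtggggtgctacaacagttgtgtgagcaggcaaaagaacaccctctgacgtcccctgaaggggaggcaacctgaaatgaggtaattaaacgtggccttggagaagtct
Gdf10, chr14:33923337-33923636, plus strand: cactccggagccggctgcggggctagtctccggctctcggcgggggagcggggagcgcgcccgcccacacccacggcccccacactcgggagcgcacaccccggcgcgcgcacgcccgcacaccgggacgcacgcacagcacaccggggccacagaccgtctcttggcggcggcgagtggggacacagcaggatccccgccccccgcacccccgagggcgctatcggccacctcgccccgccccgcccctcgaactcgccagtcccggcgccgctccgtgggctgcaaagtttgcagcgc
The *Gfap* window held a STAT motif (TTCNNNGAA) that began 2 bases before the start of transcription, and the *Slc1a3* window held a STAT motif at 96 bases before the start. The *Slc1a3* window also held TATAAA, the letters of a TATA box, but on the opposite strand and at 161 bases before the start. The *Gdf10* window, 77.3% G and C, held none of the searched motifs. STAT motifs stood in 8.30% of 32851 promoter windows of the same length and TATAAA, on either strand, in 13.6%. Of the other motifs, TTGGCA (an NFI motif, in 14.1% of windows) was found for *S100b*, TGANTCA (AP-1, in 7.81%) for *Gja1* and AACAAT (SOX, in 10.7%) for 1 of the 2 *Hopx* promoters, and TGGGTGGTC (GLI, in 0.253%) was found for none. No motif overlapped another, and these matches describe letters only.

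Tumors were first compared with all 6 control cerebella, to ask how the glial genes of a mature cerebellum stand in the tumor. Fold changes are on the log2(TPM + 1) scale from limma, and a gene was called at a Benjamini-Hochberg adjusted p below 0.01 with a log2 change of at least 1. Of the 10 genes, 9 fell in tumors, against 21.5% of the 16241 genes tested that were called lower. The same 9 genes were lower in every tumor than in every control, which held for 35.7% of genes tested. The median log2 change of the 10 genes was -2.66, beside -0.11 over all genes tested, and *Gfap* was the exception.

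**Figure D1:**
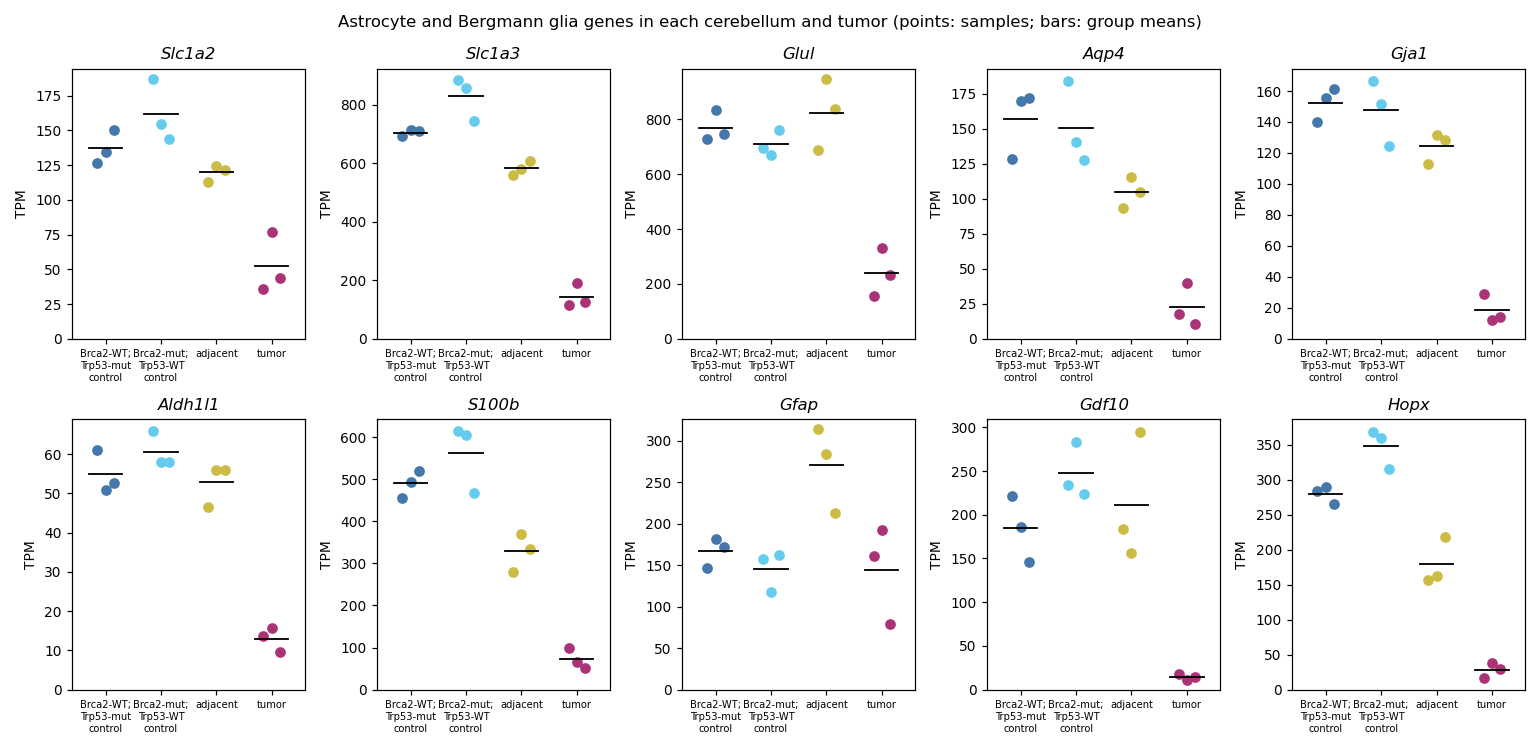
TPM (vertical axes, from 0) of each gene in the 12 samples, grouped as Brca2-WT;Trp53-mut control, Brca2-mut;Trp53-WT control, adjacent cerebellum and tumor, with points for samples and bars for group means. In 9 panels the 3 tumors lie below every other sample, whereas the *Gfap* tumors, 79.3 to 193 TPM, overlap the controls, 117 to 181 TPM.

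In control cerebella the members spanned a wide range of levels per transcript length. *Slc1a3* (768 ± 83.2 TPM, SD, n = 6) and *Glul* (739 ± 57.2 TPM) did not differ beyond their spread and were followed by *S100b* (526 ± 68.1 TPM), *Hopx* (314 ± 42.1 TPM) and *Gdf10* (216 ± 46.4 TPM). *Gfap* (156 ± 22.4 TPM), *Aqp4* (154 ± 24.6 TPM), *Gja1* (149.9 ± 15.5 TPM) and *Slc1a2* (149 ± 21.0 TPM) lay within their spread of each other, and *Aldh1l1* (57.8 ± 5.49 TPM) was lowest. In tumors the order was *Glul*, *Gfap*, *Slc1a3*, *S100b*, *Slc1a2*, *Hopx*, *Aqp4*, *Gja1*, *Gdf10* and *Aldh1l1*, with means from 241 to 13.0 TPM.

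The 3 glutamate-handling genes fell by 1.57 to 2.44 on the log2 scale. *Slc1a3* (Entrez 20512), the glutamate transporter that predominates in Bergmann glia, was at 886, 859 and 744 TPM in Brca2-mut;Trp53-WT controls, 693, 715 and 709.55 TPM in Brca2-WT;Trp53-mut controls and 114, 191 and 127 TPM in tumors. The highest tumor (GB359) lay far below the lowest control, and the log2 change was -2.44 (SE 0.16, limma adjusted p = 2.47e-07). *Slc1a2* (Entrez 20511), the main astrocyte glutamate transporter of the forebrain, was at 187, 154 and 144 TPM and 127, 134 and 150.15 TPM in the same control groups, and at 35.7, 76.8 and 43.7 TPM in tumors. Its decrease was the smallest of the 9 (log2 change -1.57, SE 0.21, limma adjusted p = 6.39e-05). *Glul* (Entrez 14645), glutamine synthetase, averaged 739 ± 57.2 TPM (SD, n = 6) in controls and 241 ± 87.3 TPM (SD, n = 3) in tumors. It fell by 1.68 on the log2 scale (SE 0.19, limma adjusted p = 1.63e-05), and stayed the most abundant member in tumors.

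Genes of water balance, gap junctions and general astrocyte identity had log2 changes between -2.09 and -3.04. *Aqp4* (Entrez 11829), the water channel of astrocyte endfeet, ranged from 128 to 184 TPM in controls and was at 17.6, 39.9 and 10.9 TPM in tumors (log2 change -2.88, SE 0.31, limma adjusted p = 1.33e-05). *Gja1* (Entrez 14609), a connexin of astrocyte gap junctions, ranged from 124 to 167 TPM in controls and was at 29.15, 12.1 and 14.3 TPM in tumors, a log2 change of -3.04 (SE 0.22). GB359 was thus the highest tumor for *Aqp4* and the lowest for *Gja1*, so the tumors did not keep a single order across the genes. *S100b* (Entrez 20203), a calcium-binding protein of astrocytes, was at 614, 605 and 468 TPM in Brca2-mut;Trp53-WT controls, 456, 494 and 520.2 TPM in Brca2-WT;Trp53-mut controls and 100.15, 65.8 and 51.7 TPM in tumors. Its log2 change was -2.88 (SE 0.18, limma adjusted p = 2.45e-07). *Aldh1l1* (Entrez 107747), a folate enzyme widely used as a pan-astrocyte marker, was the least abundant member, at 57.8 ± 5.49 TPM (SD, n = 6) in controls and 13.0 ± 3.13 TPM (SD, n = 3) in tumors (log2 change -2.09, SE 0.14).

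*Gdf10* and *Hopx*, which in the cerebellum are linked to Bergmann glia, had the lowest tumor levels relative to controls. *Gdf10* (Entrez 14560), a secreted ligand of the bone morphogenetic protein family, was at 234, 284 and 224 TPM in Brca2-mut;Trp53-WT controls and at 221, 186 and 146 TPM in Brca2-WT;Trp53-mut controls. In tumors it was at 18.045, 10.6 and 14.3 TPM, a mean 15.1-fold below the control mean (log2 change -3.82, SE 0.21, limma adjusted p = 8.26e-08). *Hopx* (Entrez 74318), an atypical homeodomain protein of the Bergmann glial lineage, was at 369, 359 and 315 TPM and 284, 289.75 and 265 TPM in the control groups, and at 17.1, 38.4 and 29.9 TPM in tumors. The tumor mean was 11.01-fold below the control mean (log2 change -3.48, SE 0.21, limma adjusted p = 1.83e-07).

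*Gfap* (Entrez 14580), the intermediate filament of astrocytes that increases in reactive states, did not pass the test. It was at 157, 117 and 162 TPM in Brca2-mut;Trp53-WT controls, 147, 181 and 172 TPM in Brca2-WT;Trp53-mut controls and 161, 193 and 79.3 TPM in tumors. Tumor GB359 lay above every control and tumor GB370 below every control, and the log2 change was -0.20 (SE 0.24, limma adjusted p = 0.491). Without tumor GB370 the log2 change was 0.19 (limma adjusted p = 0.315). *Gfap* ranked sixth among the members by mean TPM in controls and second, after *Glul*, in tumors, where its mean (144 TPM) was next to that of *Slc1a3* (also 144 TPM) and within their spread. It made up 3.45% to 5.65% of the members' summed TPM in controls and 12.9% to 24.2% in tumors, a sum that itself was 2986 to 3560 TPM in controls and 615 to 975 TPM in tumors.

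Markers of other cells moved in the same tumors. All 6 granule neuron markers (*Gabra6*, *Cbln3* and others; median log2 change -3.88), all 5 Purkinje cell markers (median -5.31) and all 8 oligodendrocyte markers (median -4.52) fell, and all 6 GCP markers rose (median 5.99). The summed granule neuron markers were 111 to 382 TPM in tumors and 2476 to 3216 TPM in controls, those of Purkinje cells 225 to 353 TPM and 5446 to 8541 TPM, and those of oligodendrocytes 115 to 332 TPM and 3577 to 5490 TPM. Of the other lists, 5 of 5 ependymal and 3 of 5 endothelial markers fell, 2 of 6 microglia markers rose, and 0 of 6 choroid plexus markers were called. Choroid plexus markers summed to 22.7 to 49.95 TPM in tumors and 17.98 to 5195 TPM in controls (median log2 change -2.07). Their part in the decrease of the glial genes was not tested.

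**Figure D2:**
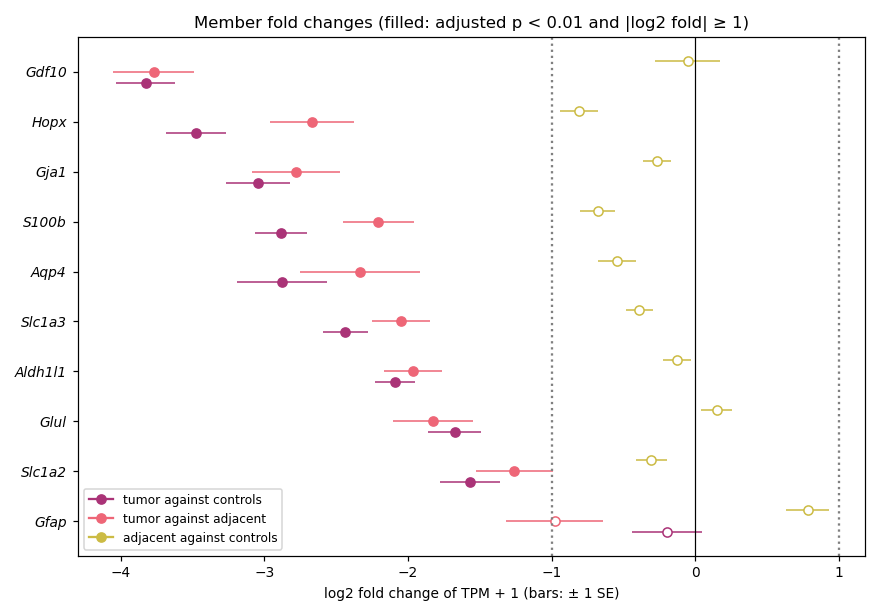
Log2 fold change of TPM + 1 (horizontal axis, bars ± 1 SE) of each gene for tumors against controls, tumors against adjacent cerebellum and adjacent cerebellum against controls, with called genes filled and dotted lines at changes of 1. *Gdf10* is lowest in tumors at -3.82 against controls, and *Gfap* is the only gene open in all 3 comparisons, with 0.78 in adjacent cerebellum.

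Tumors were then set against the cerebellum next to them in the same mice, a comparison that shares the tumor samples with the one above. Here too 9 of the 10 genes fell (median log2 change -2.13, beside -0.14 over all genes tested), against 18% of 15845 genes tested that were called lower. All 10 were lower in every tumor than in every adjacent sample, as were 38.9% of genes tested. *Gdf10* was at 184, 156 and 295 TPM in adjacent cerebellum of GB344, GB359 and GB370 (log2 change -3.77, SE 0.28, limma adjusted p = 0.000202), and *Slc1a2* was again the gene with the smallest called decrease (log2 change -1.26, SE 0.27, limma adjusted p = 0.00844). *Gfap* was at 314, 285 and 213 TPM in adjacent cerebellum and missed the threshold (log2 change -0.98, SE 0.34, limma adjusted p = 0.0469). Leaving out 1 library ended some calls: that of *Slc1a2* without any adjacent sample or without tumor GB344 or GB370 (limma adjusted p = 0.0166 to 0.0309), that of *Aqp4* without any adjacent sample or without tumor GB344 (0.0119 to 0.0179), and that of *Glul* without adjacent GB359 or tumor GB370 (0.0105 to 0.0113). Over the whole table, 755 genes were called higher and 2852 lower, whereas median-of-ratios scaling gave 1441 and 2410.

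Whether the genes moved alike was examined with ratios of TPM within each sample, which do not depend on the scaling of a library. The ratio of *Slc1a3* to *Slc1a2* was 4.73 to 5.57 in controls, 4.65 to 5.01 in adjacent cerebellum and 2.49 to 3.19 in tumors, so no tumor overlapped any other sample. The mean log2 ratio was 0.86 lower in tumors than in controls (difference -0.86, adjusted p = 0.0476, exact two-sided permutation test, 3 against 6). The ratio of *Gfap* to *Aldh1l1* was 2.02 to 3.56 in controls and 6.75, 5.09 and 3.81 in adjacent cerebellum of GB344, GB359 and GB370. In the tumors of the same mice it was 11.8, 12.2 and 8.26, above the adjacent sample of the same mouse in 3 of 3 mice. The log2 ratio differed from controls by 1.98 in tumors and by 0.92 in adjacent cerebellum (adjusted p = 0.0476 each, exact two-sided permutation tests). The ratio of *Gdf10* to *Aqp4* was 1.02, 0.265 and 1.32 in tumors and 0.851 to 2.02 in controls, and its log2 difference of -0.97 in tumors did not pass (adjusted p = 0.229, exact two-sided permutation test). These are 6 tests adjusted together, the smallest p that 3 against 6 samples allows is 0.0238, and no p below 0.05 is possible for the tumor against adjacent groups of 3.

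**Figure D3:**
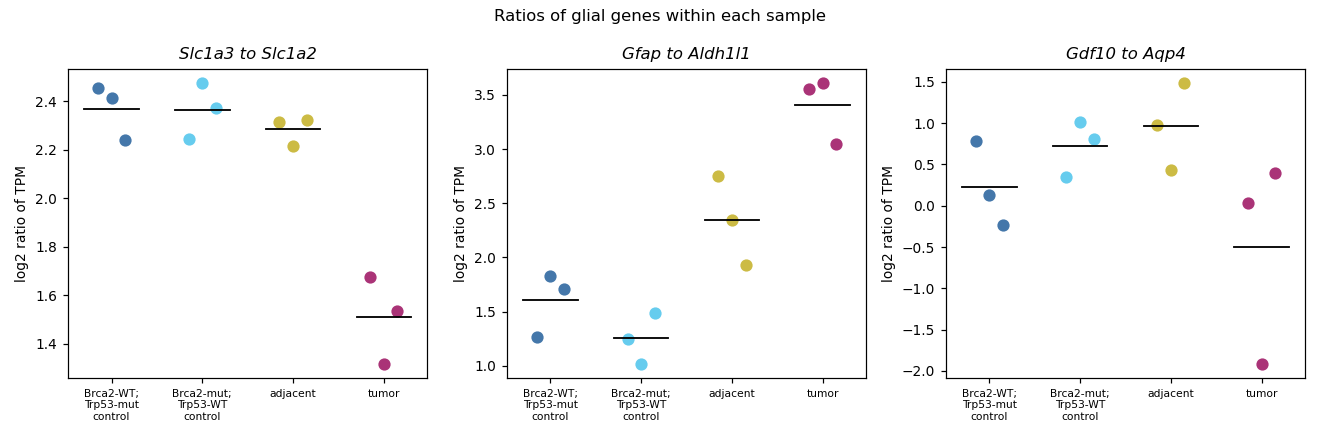
Log2 ratio of TPM (vertical axes, which do not start at 0) of *Slc1a3* to *Slc1a2*, *Gfap* to *Aldh1l1* and *Gdf10* to *Aqp4* in each sample, with points for samples and bars for group means. Tumors lie apart from controls in the left panel (2.49 to 3.19 as a plain ratio) and the middle panel (8.26 to 12.2), and overlap them in the right panel.

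Adjacent cerebellum was compared with the 6 controls to see whether glial genes differed in tissue outside the dissected tumor. None of the 10 genes was called by limma, where 0.224% of 16091 genes tested were called higher and 0.0124% lower. At an unadjusted p below 0.05, 1 of the 10 was higher and 6 were lower, beside 22.1% and 12.4% of genes tested. Over the whole table the calls were 36 higher and 2 lower, with median-of-ratios scaling 52 and 11, and those higher ranged from 0 without control GB520 to 564 without adjacent GB370. At a limma adjusted p below 0.05 without a minimum change, 1 gene was higher and 4 were lower, beside 10.1% and 5.57% of genes tested. Every adjacent sample lay above every control for *Gfap* (11.7% of genes tested) and below every control for *Hopx*, *S100b*, *Aqp4*, *Slc1a3* and *Slc1a2* (7.64% of genes tested). The median log2 difference of the 10 genes was -0.29, beside 0.07 over all genes tested.

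*Gfap*, at 314, 285 and 213 TPM in adjacent cerebellum against 117 to 181 TPM in controls, differed by 0.78 on the log2 scale (SE 0.15, limma adjusted p = 0.0156). Its adjusted p ranged from 0.0022 without adjacent GB370 to 0.0775 with Brca2-WT;Trp53-mut controls only, and was 0.0687 without adjacent GB344, while the log2 difference stayed between 0.67 and 0.95. *Hopx* was at 157, 163 and 218 TPM in adjacent cerebellum (log2 difference -0.81, SE 0.13, limma adjusted p = 0.0116) and *S100b* at 281, 369.5 and 335 TPM (-0.68, SE 0.12, 0.0135). *Aqp4*, at 93.1, 116 and 105 TPM, differed by -0.54 (SE 0.13, limma adjusted p = 0.0278), and *Slc1a3*, at 561, 579.6 and 609.8 TPM, by -0.39 (SE 0.10, limma adjusted p = 0.0274). *Slc1a2*, with a log2 difference of -0.31, had a limma adjusted p of 0.0797. The remaining genes overlapped the controls: *Glul* (log2 difference 0.15), *Gja1* (-0.26), *Aldh1l1* (-0.13) and *Gdf10* (-0.05), with limma adjusted p-values of 0.0847 to 0.885. *Gdf10* and *Hopx*, both of Bergmann glia and both far down in tumors, thus stood at 98.0% and 57.2% of their control means in adjacent tissue. The adjacent mean of *Gdf10* came from a wide spread, 184, 156 and 295 TPM in GB344, GB359 and GB370.

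Markers of other cells differed among the adjacent samples and between them and controls. *Gfap* was highest in GB344, where the GCP marker sum was 486 TPM, and lowest in GB370, where it was 69.9 TPM. Microglia markers summed to 190.3, 169.8 and 97.2 TPM in adjacent GB344, GB359 and GB370 and to 77.2 to 150.2 TPM in controls, with 0 of 6 called by limma and 1 higher at an unadjusted p below 0.05 (22.1% of genes tested). Oligodendrocyte markers summed to 1787, 4803 and 2196 TPM, against 3577 to 5490 TPM in controls, with 0 of 8 called by limma, all 8 lower at an unadjusted p below 0.05 (12.4% of genes tested), and a median log2 difference of -0.87. Purkinje cell markers summed to 4395, 4823 and 5468 TPM, against 5446 to 8541 TPM in controls, with 0 of 5 called by limma, 4 lower at an unadjusted p below 0.05 and a median log2 difference of -0.45. Ependymal markers summed to 44.4 to 52.8 TPM, against 46.0 to 60.1 TPM, with 0 of 5 called by limma, 4 lower at an unadjusted p below 0.05 and a median of -0.58. Those 4, *Foxj1*, *Tmem212*, *Dynlrb2* and *Ccdc153*, named after their values were seen, were below every control, as were 7.64% of genes tested. Their part in the differences of the glial genes was not tested.

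The control genotypes were compared with each other, since the tumor genotype joins both mutations. None of the 10 genes was called by limma, and over 15575 genes tested 0.0128% were called higher and 0.0449% lower in Brca2-mut;Trp53-WT than in Brca2-WT;Trp53-mut cerebellum. At an unadjusted p below 0.05, 3 of the 10 were higher and 0 lower, beside 4.78% of genes tested that were higher. Another scaling (median of ratios) turned the split of the 9 calls over the whole table, 2 higher and 7 lower, into 2 higher and 1 lower. *Gdf10* (log2 difference 0.43, SE 0.15), *Hopx* (0.31, SE 0.08) and *Slc1a3* (0.23, SE 0.08) were higher in all 3 Brca2-mut;Trp53-WT samples than in all 3 of the other genotype, as were 6.7% of genes tested, with limma adjusted p-values of 0.188, 0.102 and 0.168. *Gfap* differed by -0.20 (SE 0.13, limma adjusted p = 0.438). Choroid plexus markers summed to 3971 to 5195 TPM in Brca2-WT;Trp53-mut samples, with 0 of 6 called by limma. Within Brca2-mut;Trp53-WT the sum was uneven, at 879 TPM in GB361, 17.98 TPM in GB508 and 22.9 TPM in GB512. All 5 Purkinje cell markers were higher in every Brca2-mut;Trp53-WT sample (median log2 difference 0.53, sums of 7206 to 8541 TPM against 5446 to 5839 TPM), with 0 called by limma and 5 higher at an unadjusted p below 0.05. Their part in the glial values was not tested. Each of the 9 genes that fell in tumors did so against either control genotype alone.

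Wider lists of glial genes were described in the tumor against control comparison, where 14.4% of genes tested were called higher and 21.5% lower. Of 7 genes of transmitter and amino acid uptake, 5 fell, among them the serine transporter *Slc7a10* (log2 change -3.49), the glycine transporter *Slc6a9* (-2.35) and the glutamine transporter *Slc38a3* (-1.36). Of 12 genes of potassium and water balance, 11 fell, with *Gjb6* (a second astrocyte connexin, -4.32), the bicarbonate cotransporter *Slc4a4* (-3.67) and *Mlc1* (-2.96) among the lowest values. The exception, *Dag1*, singled out after its value was seen, differed by -0.14. All 12 astrocyte surface and secreted genes fell, led by the claudin *Cldn10* (-4.17), the growth factor receptor *Fgfr3* (-3.50), the matricellular protein *Sparcl1* (-3.28) and the neurotensin receptor *Ntsr2* (-3.25).

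Of 12 genes of astrocyte metabolism and lipid handling, 9 fell, including the glycolytic enzyme *Aldoc* (log2 change -4.85), *Pla2g7* (-3.35), the chaperone *Clu* (-3.33) and the acyl-CoA synthetase *Acsbg1* (-3.32). Of 12 other genes of Bergmann glia, 7 fell, with the D-amino acid oxidase *Dao* (-5.13), the AMPA receptor subunit *Gria1* (-4.08), *A2m* (-3.50) and *Timp4* (-3.27) lowest. *Dao* went from a mean of 77.4 TPM in controls to 1.43 TPM in tumors. The metallothioneins *Mt1* (-3.18) and *Mt2* (-3.26), which bind zinc and copper and were singled out after their values were seen, fell in tumors and lay above every control in adjacent cerebellum (log2 differences 0.89 and 0.87, limma adjusted p = 0.00706 and 0.00883, short of the minimum change). In adjacent cerebellum 11.7% of genes tested lay above every control. *Gria1* is also expressed by neurons and *Aldoc* by a subset of Purkinje cells.

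Lists of transcription factors and of progenitor genes held calls in both directions, beside 14.4% of genes tested called higher and 21.5% called lower. The calls lower, 2 of 10 and 1 of 7, were no more frequent than among all genes tested. Of 10 transcription factors that astrocytes use, 4 rose and 2 fell: *Nfib* (log2 change 2.29), *Nfia* (2.20), *Hes1* (1.41) and *Sox9* (1.14) rose, and *Id4* (-3.77) and *Rfx4* (-1.53) fell. *Hes1* and *Sox9* were named after their values were seen. *Nfia* and *Nfib* are also expressed in the granule neuron lineage, and *Hes1* is a target of Notch signaling in many progenitors. Of 7 genes of radial glia and progenitors, *Nes* (1.63) and the fatty acid binding protein *Fabp7* (1.55), which is also among the other Bergmann glia genes, rose, and *Prom1* (-1.04) fell. For *Nes*, control GB512 (17.3 TPM) lay above tumor GB370 (14.6 TPM).

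The list of 16 genes of reactive astrocytes held 6 that rose and 1 that fell in tumors, with a median log2 change of 0.73. The chemokine *Cxcl10* (log2 change 3.44), *Emp1* (2.24) and the protease inhibitor *Timp1* (1.49) were at the top and the heat shock protein *Hspb1* (-1.65) fell, and immune and vascular cells express several of these genes too. *Cxcl10* overlapped the controls, at 71.1, 36.0 and 14.2 TPM in tumors and 18.7 TPM in control GB512. In the other controls it was at 0.504 to 3.11 TPM. In adjacent cerebellum 7 of the 16 (*Lcn2*, *S1pr3*, *Serping1*, *Timp1*, *Osmr*, *Cp* and *Aspg*, named after their values were seen) were higher in every sample than in every control, and the median log2 difference was 0.61. Over all genes tested, 11.7% were higher in every adjacent sample. None of the 16 was called by limma, and 9 were higher at an unadjusted p below 0.05, as were 22.1% of genes tested. *Timp1* averaged 10.2 TPM in adjacent cerebellum and 3.64 TPM in controls (log2 difference 1.23, limma adjusted p = 0.0133). Microglia markers rose in tumors for 2 of 6 genes, and their part in the reactive list was not tested.

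**Figure D4:**
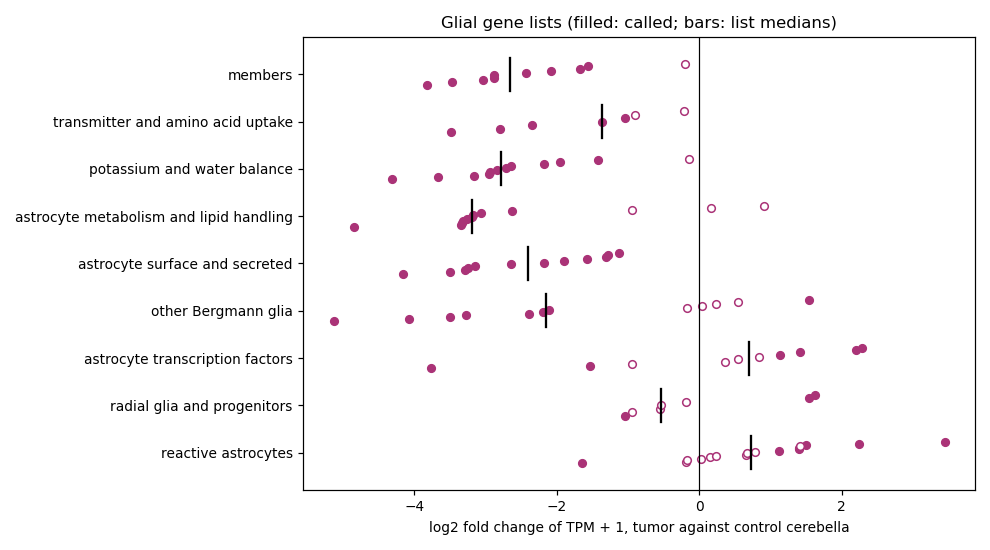
Log2 fold change of TPM + 1 in tumors against controls (horizontal axis) of every gene in the 10-gene set and 8 wider glial lists, with called genes filled and bars at list medians. Lists of uptake, potassium and water balance, metabolism and surface genes lie mostly below 0 (medians -1.36 to -3.19), while transcription factors (0.69) and reactive genes (0.73) have medians above 0.

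The likeness of the genes across samples was described by Pearson's r of log2(TPM + 1) over the 12 samples, which share the drop in the 3 tumors. Among the 9 genes other than *Gfap*, the 36 pairs had r from 0.85 to 0.99, while the 9 pairs with *Gfap* had r from 0.20 to 0.46. Over the 9 samples without tumors, *Gfap* had r of -0.94 with *Hopx*, -0.88 with *Slc1a3* and -0.87 with *S100b*, where the adjacent and control groups lie apart. Without tumors the 36 pairs had r from -0.53 (*Slc1a3* with *Glul*) to 0.96 (*Slc1a3* with *Hopx*), with a median of 0.63. *Glul*, which adjacent cerebellum held at 688, 946 and 837 TPM, was the only gene of the 9 with a positive r with *Gfap* there (0.48). Across 16498 genes and all 12 samples, the genes most like *Gfap* were *Hip1r* (r 0.92) and *Cln3* (0.91). Those most like *Gdf10* were *Nrg3* (0.993) and *Relt* (0.993), those most like *Hopx* were *Casq2* (0.997) and *Sec14l2* (0.997), and those most like *Slc1a3* were *Sardh* (0.998) and *Shisa9* (0.997). For *Slc1a2* they were *Aktip* and *Itfg1*, for *Glul* *Fndc10* and *Kbtbd11*, for *Aqp4* *Acbd5* and *Edil3*, for *Gja1* *Ddo* and *Galnt9*, for *S100b* *Ghitm* and *Spryd7*, and for *Aldh1l1* *Tollip* and the glycine transporter *Slc6a9*, with r between 0.989 and 0.997. No member was among the 2 nearest genes of another member. Over the 9 samples without tumors, r of these nearest genes with their member ranged from 0.548 (*Galnt9* with *Gja1*) to 0.975 (*Edil3* with *Aqp4*).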

How the data were processed

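Poly(A) RNA of flash-frozen tissue was sequenced and, per the labels and the study's methods, the authors ran Salmon 0.8.1 on known mm10 transcripts, then collapsed the estimates per gene (tximport). The deposited values are TPM per sample, without counts, so the depth is unknown and no counting interval is given. TPM is a share of each library, so a large rise of some genes lowers the others. The authors tested counts with DESeq2, and these counts were not used here.

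Samples were grouped by tissue and genotype from the labels, and each of the 3 replicates of a group was a separate mouse. The test was limma 3.58.1 (R 4.3.3) on log2(TPM + 1), with a mean-variance trend, for genes that reached 1 TPM in no fewer than 3 of the samples compared, and p-values were adjusted over all genes tested (Benjamini-Hochberg). Log2 changes on this scale understate those of low genes. Ratios were tested by exact permutation in scipy 1.17.1. The tests were checked on simulated data.

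Tumor and adjacent samples pair by mouse: deviations from group means correlated within GB344, GB359 and GB370 at r of 0.25, 0.18 and 0.15, and each sample was most like its own mouse. The main fit has no block. Alternatives were other pseudocounts (0.1, 0.01), filters, scalings and fits, a looser threshold, single control genotypes, the mouse as a block and leaving out each sample. Text names all members, up to 4 called genes per wider list with the largest change in tumors against controls, and the 2 genes most like each member, though some listed genes are not reported here. Members and lists were chosen with earlier results of these data known. Gene locations and promoters are from RefSeq GRCm38.p6, the mm10 build, matched by Entrez ID.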

Additional observations from a re-analysis of the deposited data

How the results depend on the processing

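The 9 genes called lower in tumors against controls were 9 under every alternative run and without any single sample. Against adjacent cerebellum the count was 9 with the mouse as a block, which changed no call, 8 with a pseudocount of 0.01, no filter, median-of-ratios scaling or no trend, 10 at an adjusted p below 0.05 with no minimum change, and 6 to 9 without 1 sample. *Slc1a2* was the gene lost at 8. Median-of-ratios scaling moved the median of all genes in that comparison from -0.14 to 0.05 and quantile normalization to 0.13. In adjacent cerebellum against controls, the looser threshold called 1 gene higher and 4 lower where the main threshold called 0, and without adjacent GB370 the whole table had 564 genes called higher and 22 lower, again with 0 of the 10.

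Reversals concerned genes near 0. *Gfap* in tumors against controls ranged from -0.45 to 0.19 without 1 sample, positive only without tumor GB370. *Gdf10* in adjacent cerebellum against controls was 0.16 with Brca2-WT;Trp53-mut controls only and ranged from -0.32 to 0.14 without 1 sample, positive without adjacent GB344 (0.02), adjacent GB359 (0.14) or control GB508 (0.03). Between control genotypes, with median-of-ratios scaling, *Aqp4* was 0.0551 and *Gja1* 0.0614, and without 1 sample they ranged from -0.21 to 0.0518 and from -0.15 to 0.0651. The cause was not tested.

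Without 1 sample, no ratio passed. The smallest p that the permutation test allowed was 0.0714 with 2 against 6 samples and 0.0357 with 3 against 5, before adjustment. The log2 differences from controls then ranged from 0.71 to 1.12 for *Gfap* to *Aldh1l1* in adjacent cerebellum, from 1.87 to 2.16 for it in tumors, and from -0.94 to -0.76 for *Slc1a3* to *Slc1a2* in tumors. The small groups and unknown depth limit all values.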
